A study of Homo sapiens with 12 samples.

Results

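Hypoxia-inducible and glycolysis genes were followed in 2 established lines of human renal carcinoma, RCC4 and UMRC2, after FoxO3 or FoxO1 had been switched on. The set holds 42 named genes: 19 glycolytic enzymes, 4 glucose or lactate transporters and 19 other genes known to be induced by low oxygen. A probe set annotated to a single gene was measured for 39 of them, out of 19775 genes in all, and all 39 reached the intensity filter that left 14283 genes for testing. CA9, SLC16A1 and SLC16A3 were not analysed here. Each gene was read from the probe set with the highest mean over the 12 arrays.

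Each cell line stably carried FoxO3(TA)ERT2, FoxO1(TA)ERT2 or, in the lines labelled empty vector (EV), the modified estrogen receptor part ERT2 alone according to the labels. In both fusions 3 sites that the kinase AKT phosphorylates had been replaced by alanine, and 4-hydroxytamoxifen (4OHT) moves the fusion from the cytoplasm into the nucleus. The 6 derivatives were kept in serum and puromycin and received 100 nM 4OHT or ethanol vehicle for 12 h, and the labels name no low-oxygen treatment. Every combination of line, construct and treatment has 1 Affymetrix U133 Plus 2.0 array. Precision is therefore limited by how few arrays there are, and each construct was tested over n = 2 cell lines. The derivatives are 1 stable culture of each kind, described by the labels as having little FoxO1 and FoxO3 of their own. FOXO3 transcript, however, reached the array median on all 12 arrays, and its levels in EV cells are given below.

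Cells short of oxygen stabilise the hypoxia-inducible factors HIF-1 and HIF-2, which bind short DNA elements and switch on glucose uptake, glycolysis, angiogenic signals, matrix enzymes and acid export. The VHL protein marks HIF for destruction when oxygen is present. Kidney cancer lines without functional VHL, RCC4 and UMRC2 among them, keep HIF and its targets on in normal oxygen. FoxO factors act downstream of insulin signalling, and AKT holds them in the cytoplasm until signalling falls.

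The letters of the hypoxia response element are visible in many of these promoters, and 4 are shown as examples from genes that changed with FoxO3. They run from 250 bases before to 50 after the start of transcription, from RefSeq on GRCh38.p14: HK2 (chr2:74834920-74835219, plus strand), PFKFB4 (chr3:48556754-48557053, minus strand), PLIN2 (chr9:19127443-19127742, minus strand) and PLOD2 (chr3:146161135-146161434, minus strand). Capitals mark each ACGTG or GCGTG, the core of the element, on either strand, so CACGTG counts as a core on both strands and is also the E-box letters.
HK2: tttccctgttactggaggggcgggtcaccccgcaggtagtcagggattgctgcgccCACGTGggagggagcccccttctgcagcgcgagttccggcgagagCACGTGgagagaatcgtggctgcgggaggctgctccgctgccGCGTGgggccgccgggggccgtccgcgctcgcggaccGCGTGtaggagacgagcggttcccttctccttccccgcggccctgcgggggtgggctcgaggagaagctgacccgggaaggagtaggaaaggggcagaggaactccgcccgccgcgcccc
PFKFB4: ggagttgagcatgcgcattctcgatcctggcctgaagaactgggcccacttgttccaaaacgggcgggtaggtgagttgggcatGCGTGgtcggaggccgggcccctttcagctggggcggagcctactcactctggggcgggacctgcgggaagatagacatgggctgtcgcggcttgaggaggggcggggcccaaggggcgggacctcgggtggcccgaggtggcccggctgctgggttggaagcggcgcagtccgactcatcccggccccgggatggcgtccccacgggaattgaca
PLIN2: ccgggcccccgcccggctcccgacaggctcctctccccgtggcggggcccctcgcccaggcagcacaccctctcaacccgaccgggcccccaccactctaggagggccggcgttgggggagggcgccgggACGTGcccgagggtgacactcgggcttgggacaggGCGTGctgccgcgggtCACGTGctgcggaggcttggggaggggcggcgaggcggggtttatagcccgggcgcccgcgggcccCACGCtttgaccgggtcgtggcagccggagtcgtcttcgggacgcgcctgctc
PLOD2: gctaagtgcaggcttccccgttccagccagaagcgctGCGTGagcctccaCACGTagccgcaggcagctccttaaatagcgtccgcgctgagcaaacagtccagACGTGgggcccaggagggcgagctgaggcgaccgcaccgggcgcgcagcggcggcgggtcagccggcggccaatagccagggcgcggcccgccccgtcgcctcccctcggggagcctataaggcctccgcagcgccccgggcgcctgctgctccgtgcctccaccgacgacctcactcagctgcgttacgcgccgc
Counted that way, the HK2 window holds 6 cores, PFKFB4 1, PLIN2 5 and PLOD2 3. HK2 has 2 promoters in the table, with 6 and 3 cores, and the one with more cores is printed. ENO2 and HK1, which changed with FoxO3 about as much as PLOD2 or more, are not shown. The ENO2 window holds 1 core, and the HK1 promoters hold 0 or 1 each.

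Of the 39 measured genes, 36 had a promoter in that table, 61 promoters in total. A core was present in 44 of the 61, or 72.1%, against 48.4% of all 35116 promoters of the same length. By the FoxO3 results given below, a core was in 13 of 22 promoters (59.1%) of members that fell. It was in 5 of 5 promoters of members that rose and 26 of 34 (76.5%) of those that did not pass. Whether cores go with the response was not tested. Taken by gene, 33 of 36 (91.7%) had a core in at least 1 promoter, against 52.4% of 27305 genes. The members had more promoters per gene than the 27305 genes and so more windows for a match. Those 27305 are all genes with a promoter and not only the genes tested here. The forkhead letters GTAAACA, searched on both strands, were in 0 of the 61 windows and in 3.42% of all promoters. A match is a run of letters and not a measured binding site.

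Values below are log2 intensities after quantile normalisation, and a log2 difference of 1 is a 2-fold difference. A response is the level with 4OHT minus the level with vehicle in the same derivative, and an effect is the response of a FoxO line minus that of the EV line. Errors after ± are standard errors from limma, and adjusted p-values are Benjamini-Hochberg values over all 14283 genes from limma, with 0.05 as the threshold. A lower level in bulk RNA cannot separate fewer cells of a kind from less transcript per cell.

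The estrogen receptor probe set, which reads the ERT2 part, lay between 8.93 and 13.47 in the fusion lines and between 4.64 and 6.51 in EV lines. In RCC4 it read 12.61 with 4OHT and 12.91 with vehicle for FoxO3 and 8.93 with 4OHT and 9.17 with vehicle for FoxO1, and in UMRC2 12.75 with 4OHT and 13.47 with vehicle for FoxO3 and 12.07 with 4OHT and 12.51 with vehicle for FoxO1. The EV values go against that label, since all 4 EV arrays lay below the array median of 6.62. Of 9 ESR1 probe sets 5 were at 7.78 or more on all fusion arrays, and those 5 reached at most 6.51 on EV arrays. Every effect against EV below is therefore a comparison with lines labelled EV, in which ERT2 transcript was not shown. The label of little FoxO1 and FoxO3 in the cells themselves was not borne out for FOXO3 transcript. In EV cells FOXO3 read 10.33 with 4OHT and 10.32 with vehicle in RCC4, and 11.48 and 11.59 in UMRC2. FOXO1 read 6.31 and 6.42 in RCC4 EV and 7.48 and 6.73 in UMRC2 EV, 4OHT first. Protein was not measured. Isoform and fusion level cannot be told apart where FoxO3 and FoxO1 are compared. The kidney epithelial markers PAX8, KRT8, KRT18 and CDH16 reached the array median on all 12 arrays. Of 7 measured markers of other cell types, the endothelial marker PECAM1 (8.19 to 8.79) and the fibroblast marker COL1A1 (9.17 to 9.77) reached it on all 12 and the T cell marker CD3E on 9, while PTPRC, CDH5, PDGFRA and LUM reached it on 0 and CDH5 was at the floor on all 12. None of the 3 that entered the tests passed with FoxO3. Of 6 kidney epithelial markers 2 were lower with FoxO3, PAX8 (-1.15) and KRT18 (-1.46), and their part in the results was not tested.

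As deposited, the RCC4 FoxO3 array with 4OHT had a median intensity of 74.6, against 121.2 to 138.7 on the other 5 RCC4 arrays. The 6 UMRC2 arrays lay between 71.1 and 88.7. Quantile normalisation removes such differences in level, and results of each FoxO contrast are also given without its pair.

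With FoxO3 on, the hexokinases, the phosphofructokinase activators and ENO2 were lower in both lines, while most lower glycolytic enzymes did not pass. Against EV, 7 of the 19 glycolytic enzymes fell and 0 rose, with a median effect of -0.31. Among the 18 other hypoxia-inducible genes 4 fell and 3 rose, with a median of -0.41, and neither of the 2 glucose transporters passed. Together that is 14 of 39, or 35.9%, beside 16.6% of all genes tested, 6.6% higher and 10% lower, and the median effect was -0.32 against -0.07 over all genes. Without the RCC4 FoxO3 pair, 12 fell and 3 rose, beside 12.7% of all genes. The map of responses by derivative shows these effects beside those of FoxO1 and EV.

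**Figure D1:**
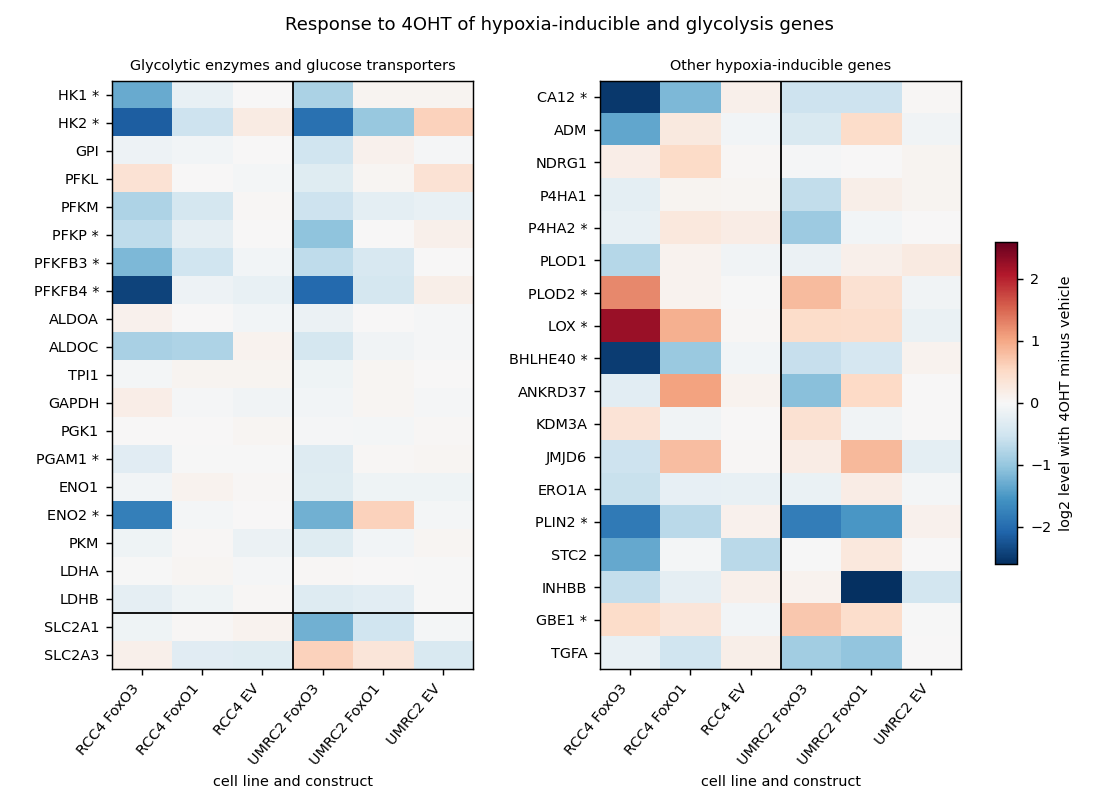
Response to 4OHT (colour, log2 level with 4OHT minus vehicle, 1 pair of arrays per square) of the 39 measured genes (rows) in the 6 derivatives (columns, RCC4 left of the line and UMRC2 right of it); stars mark the 14 genes past adjusted p 0.05 for FoxO3 against EV. HK2, PFKFB4 and PLIN2 are blue in both FoxO3 columns, while the EV columns lie between -0.71 and 0.60.

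Hexokinases phosphorylate glucose and so trap it in the cell, and HK2 is the inducible isozyme of tumours while HK1 is the widespread one. HK2 in the FoxO3 lines stood at 8.59 with 4OHT and 10.74 with vehicle in RCC4 and at 8.89 with 4OHT and 10.83 with vehicle in UMRC2. In the FoxO1 lines it was 10.34 and 10.87 in RCC4 and 10.02 and 11.003 in UMRC2, 4OHT first, and in EV 10.85 and 10.63 in RCC4 and 10.90 and 10.29 in UMRC2. The FoxO3 arrays with 4OHT were the lowest of the 12 and did not overlap the rest. The FoxO3 effect was -2.46 ± 0.25 (adjusted p = 0.00172), and a second probe set above the array median gave -2.22. The EV responses of HK2 were 0.22 in RCC4 and 0.60 in UMRC2, which add to the effect, and the FoxO3 responses themselves were -2.15 and -1.95.

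HK1 was 11.002 with 4OHT and 12.31 with vehicle in RCC4 FoxO3 cells and 11.64 with 4OHT and 12.46 with vehicle in UMRC2 FoxO3 cells. With 4OHT and with vehicle it read 12.11 and 12.30 in RCC4 FoxO1, 12.70 and 12.62 in UMRC2 FoxO1, 12.28 and 12.27 in RCC4 EV and 12.49 and 12.41 in UMRC2 EV. It fell with FoxO3 (-1.11 ± 0.15, adjusted p = 0.00379), again with both 4OHT arrays below the other 10. Both hexokinases were thus lower, HK2 by more.

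GPI, which turns glucose 6-phosphate into fructose 6-phosphate, had an effect of -0.31 ± 0.15 that did not pass (adjusted p = 0.214). Phosphofructokinase makes the committed step, and its platelet-type subunit PFKP fell (-0.92 ± 0.16, adjusted p = 0.00852). PFKP was 12.80 with 4OHT and 13.46 with vehicle in RCC4 FoxO3 and 12.68 with 4OHT and 13.73 with vehicle in UMRC2 FoxO3 cells. The other levels of PFKP, 4OHT first, were 13.40 and 13.63 in RCC4 FoxO1, 13.79 and 13.79 in UMRC2 FoxO1, 13.38 and 13.38 in RCC4 EV and 13.70 and 13.57 in UMRC2 EV. Its FoxO3 arrays with 4OHT were the lowest of the 12, but its dimmer probe set gave an effect of -0.43 that did not pass (adjusted p = 0.659). The muscle-type subunit PFKM had -0.58 (adjusted p = 0.104) and the liver-type subunit PFKL -0.12, with opposite signs in RCC4 (0.43) and UMRC2 (-0.67).

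PFKFB3 and PFKFB4 make and break fructose 2,6-bisphosphate, the allosteric activator of phosphofructokinase, and both are HIF targets. PFKFB4 was 7.63 with 4OHT and 10.04 with vehicle in RCC4 FoxO3 cells and 8.38 with 4OHT and 10.41 with vehicle in UMRC2 FoxO3 cells. It was 10.001 and 10.12 in RCC4 FoxO1, 9.87 and 10.32 in UMRC2 FoxO1, 10.05 and 10.23 in RCC4 EV and 10.08 and 9.94 in UMRC2 EV, 4OHT first. The other 10 arrays lay between 9.87 and 10.41, well above both FoxO3 arrays with 4OHT. The effect was -2.20 ± 0.25 (adjusted p = 0.0024), nearly equal in the lines at -2.22 in RCC4 and -2.18 in UMRC2.

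PFKFB3 fell with FoxO3 by less (-0.88 ± 0.16, adjusted p = 0.0104). It read 11.63 with 4OHT and 12.79 with vehicle in RCC4 FoxO3 cells and 11.10 with 4OHT and 11.75 with vehicle in UMRC2 FoxO3 cells. The levels were 12.31 and 12.83 in RCC4 FoxO1, 11.10 and 11.52 in UMRC2 FoxO1, 12.96 and 13.03 in RCC4 EV and 11.60 and 11.59 in UMRC2 EV, 4OHT first. In RCC4 the FoxO3 array with 4OHT was lowest of 6, whereas in UMRC2 it equalled the FoxO1 array with 4OHT at 11.10.

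Below phosphofructokinase, ENO2, the neuronal-type enolase that is also hypoxia-inducible, had the largest fall (-1.49 ± 0.19, adjusted p = 0.00306). ENO2 stood at 10.53 with 4OHT and 12.31 with vehicle in RCC4 FoxO3 cells and at 11.66 with 4OHT and 12.90 with vehicle in UMRC2 FoxO3 cells. The other levels, 4OHT first, were 12.52 and 12.57 in RCC4 FoxO1, 13.58 and 12.98 in UMRC2 FoxO1, 12.52 and 12.51 in RCC4 EV and 12.50 and 12.55 in UMRC2 EV. The FoxO3 arrays with 4OHT were again the lowest of 12, and the UMRC2 FoxO1 array with 4OHT was the highest. ENO1, the widespread enolase, had an effect of only -0.14 (adjusted p = 0.308).

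PGAM1, which moves the phosphate of 3-phosphoglycerate, fell by a small amount (-0.34 ± 0.09, adjusted p = 0.0384). It was 13.83 with 4OHT and 14.13 with vehicle in RCC4 FoxO3 cells and 13.89 with 4OHT and 14.23 with vehicle in UMRC2 FoxO3 cells. Its other levels were 14.16 and 14.17 in RCC4 FoxO1, 14.22 and 14.19 in UMRC2 FoxO1, 14.21 and 14.22 in RCC4 EV and 14.16 and 14.11 in UMRC2 EV, 4OHT first. Both FoxO3 arrays with 4OHT lay under the rest, but the call was lost without any single pair of arrays, where the adjusted p ran from 0.06 to 0.223.

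The remaining glycolytic enzymes did not pass with FoxO3. They were the aldolases ALDOA (0.03) and ALDOC (-0.68, adjusted p = 0.104), TPI1 (-0.12), GAPDH (0.11), the phosphoglycerate kinase PGK1 (-0.05), the pyruvate kinase PKM (-0.15) and the lactate dehydrogenase subunits LDHA (0.03) and LDHB (-0.30, adjusted p = 0.0581). LDHA stayed between 14.37 and 14.45 on all 12 arrays.

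Most of these enzymes, though not ALDOC, sit near the top of the intensity scale. ALDOA, GAPDH, PGK1, PGAM1, ENO1, PKM, LDHA and LDHB averaged log2 14 or more. Of the 97 genes in the whole table at that height, 6.19% passed for FoxO3 against EV and the median size of the effect was 0.08, against 16.7% and 0.47 for the genes below it. Among the measured members 1 of 8 passed at that height and 13 of 31 below it. Whether the height of the signal bears on these small effects was not tested. Dimmer probe sets of the same genes were mixed and, of those that reached the filter, none passed: TPI1, just under that height, gave -1.07 (adjusted p = 0.06) and PKM -1.02 (adjusted p = 0.0718), while ENO1 gave -0.48, ALDOA -0.41 and the 2 dimmest of PGK1 0.48 and -0.34. The plot of effect by intensity shows this spread.

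**Figure D2:**
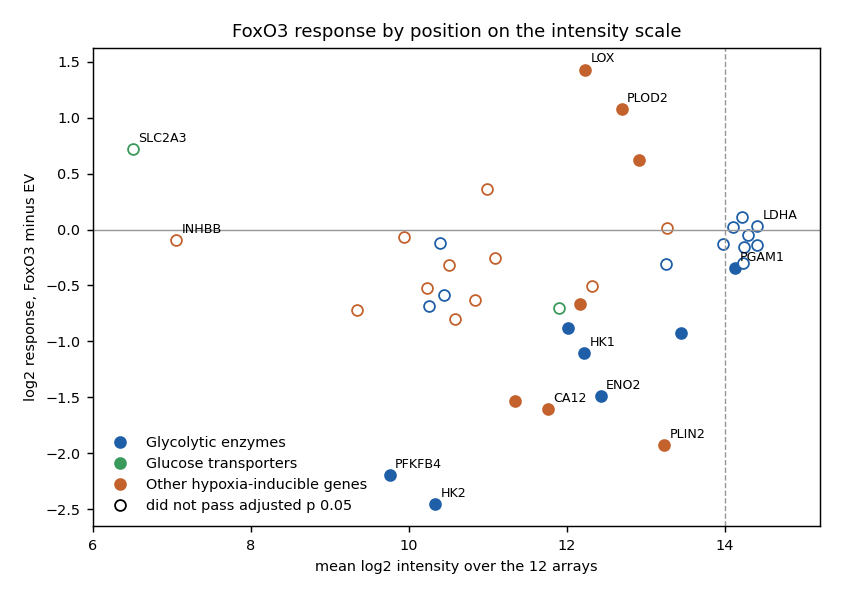
FoxO3 effect (vertical axis, log2 response minus EV response, mean over 2 lines) of each of the 39 measured genes by its mean log2 intensity over 12 arrays (horizontal axis), filled where adjusted p was under 0.05; the dashed line marks log2 14. The 8 genes right of that line lie between -0.34 and 0.11. The horizontal position is a property of each probe set and not an amount of transcript.

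The glucose transporter SLC2A1 had an effect of -0.70 ± 0.23 (adjusted p = 0.082), made of -0.20 in RCC4 and -1.21 in UMRC2. SLC2A3, the high-affinity transporter, had 0.72 ± 0.58 (adjusted p = 0.47). Neither passed.

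Among the other hypoxia-inducible genes PLIN2, the coat protein of lipid droplets, had the largest fall. PLIN2 was 11.84 with 4OHT and 13.67 with vehicle in RCC4 FoxO3 cells and 12.06 with 4OHT and 13.86 with vehicle in UMRC2 FoxO3 cells. In the FoxO1 lines it was 12.81 and 13.51 in RCC4 and 12.28 and 13.79 in UMRC2, 4OHT first, and in EV 13.71 and 13.61 in RCC4 and 13.88 and 13.76 in UMRC2. All 4 fusion arrays with 4OHT were below the other 8, which lay between 13.51 and 13.88. The FoxO3 effect was -1.93 ± 0.20 (adjusted p = 0.00204), with -1.94 in RCC4 and -1.91 in UMRC2.

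**Figure D3:**
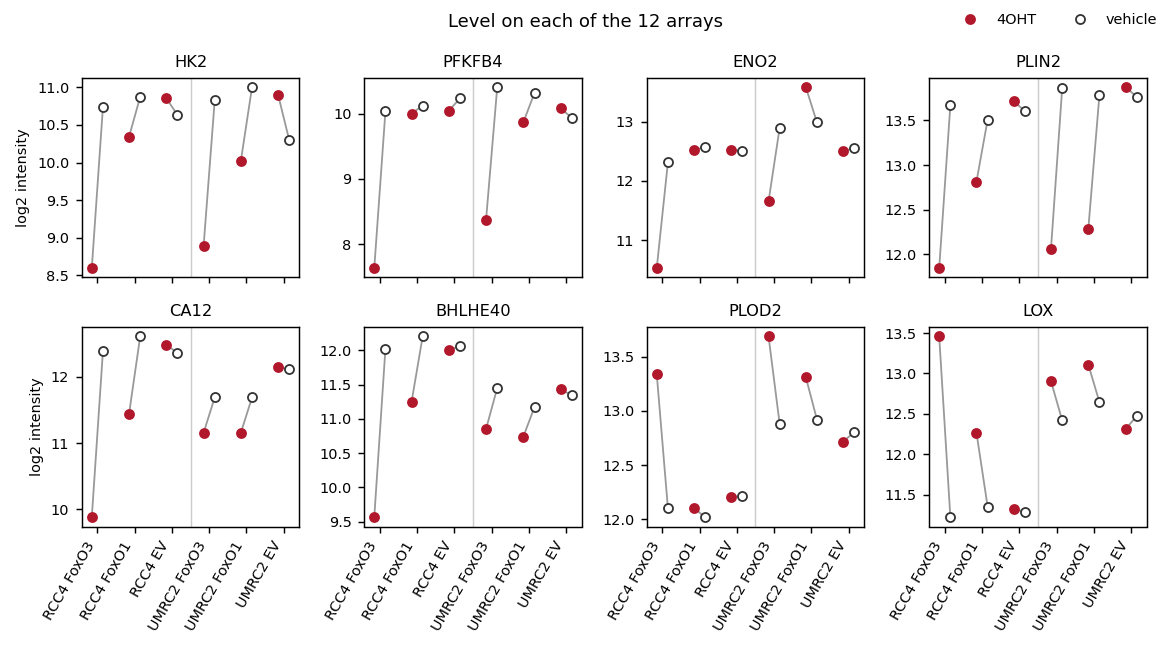
Log2 intensity (vertical axis, own range in each panel and not from 0) on each of the 12 arrays for 8 genes past adjusted p 0.05 for FoxO3 against EV; filled points are 4OHT, open points vehicle, and a line joins the arrays of a derivative. The EV lines are short in every panel other than that of HK2 in UMRC2 (10.90 with 4OHT and 10.29 with vehicle), and the RCC4 FoxO3 lines of CA12, BHLHE40 and LOX are longer than those of UMRC2.

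CA12, a membrane carbonic anhydrase that helps control pH, and BHLHE40, a transcriptional repressor of the circadian clock, fell with FoxO3. CA12 was 9.88 with 4OHT and 12.39 with vehicle in RCC4 FoxO3 cells and 11.15 with 4OHT and 11.69 with vehicle in UMRC2 FoxO3 cells. It read 11.44 and 12.61 in RCC4 FoxO1, 11.16 and 11.69 in UMRC2 FoxO1, 12.49 and 12.36 in RCC4 EV and 12.15 and 12.11 in UMRC2 EV, 4OHT first. The RCC4 FoxO3 array with 4OHT was far below all others, whereas the UMRC2 FoxO3 array with 4OHT lay beside the FoxO1 one. The effect was -1.61 ± 0.41 (adjusted p = 0.0353), and -0.76 without the RCC4 FoxO3 pair (adjusted p = 0.0787).

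BHLHE40 was 9.56 with 4OHT and 12.02 with vehicle in RCC4 FoxO3 cells and 10.85 with 4OHT and 11.45 with vehicle in UMRC2 FoxO3 cells. The other derivatives gave 11.24 and 12.20 in RCC4 FoxO1, 10.74 and 11.17 in UMRC2 FoxO1, 11.997 and 12.06 in RCC4 EV and 11.43 and 11.34 in UMRC2 EV, 4OHT first. Its effect of -1.54 ± 0.36 (adjusted p = 0.027) was -0.78 without the RCC4 FoxO3 pair (adjusted p = 0.0499), and in UMRC2 the FoxO1 array with 4OHT was lower than the FoxO3 one. On its second probe set the call was lost (-1.29, adjusted p = 0.0589). The other transcription and chromatin genes of the set did not pass: the histone demethylase KDM3A had 0.36, the oxygenase JMJD6 -0.07 and the ankyrin repeat gene ANKRD37 -0.72.

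Genes of collagen maturation went both ways. P4HA2, an alpha subunit of collagen prolyl 4-hydroxylase, fell (-0.66 ± 0.17, adjusted p = 0.0345), while PLOD2, the lysyl hydroxylase of collagen cross-links, and LOX, the lysyl oxidase that forms those cross-links, rose. P4HA2 was 11.23 with 4OHT and 11.41 with vehicle in RCC4 FoxO3 cells and 12.03 with 4OHT and 12.97 with vehicle in UMRC2 FoxO3 cells. In the others it read 11.998 and 11.72 in RCC4 FoxO1, 12.89 and 12.95 in UMRC2 FoxO1, 11.58 and 11.38 in RCC4 EV and 12.90 and 12.90 in UMRC2 EV, 4OHT first. On this probe set most of its fall came from UMRC2, at -0.94 against EV, compared with -0.38 in RCC4. Without the UMRC2 FoxO3 pair the effect was -0.42. A second probe set above the array median gave -1.04 (adjusted p = 0.031) and no such split between the lines. Its FoxO3 responses were -1.21 in RCC4 and -1.47 in UMRC2, beside EV responses of -0.21 and -0.39. P4HA1 (-0.51, adjusted p = 0.0673) and PLOD1 (-0.52, adjusted p = 0.149) did not pass.

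PLOD2 was 13.34 with 4OHT and 12.10 with vehicle in RCC4 FoxO3 cells and 13.69 with 4OHT and 12.88 with vehicle in UMRC2 FoxO3 cells. Elsewhere it was 12.11 and 12.02 in RCC4 FoxO1, 13.31 and 12.92 in UMRC2 FoxO1, 12.21 and 12.21 in RCC4 EV and 12.72 and 12.80 in UMRC2 EV, 4OHT first. The FoxO3 arrays with 4OHT were the highest of the 12, and the effect was 1.07 ± 0.18 (adjusted p = 0.00732), close to the 1.20 of its second probe set.

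LOX rose by 1.43 ± 0.33 (adjusted p = 0.0254). It was 13.46 with 4OHT and 11.22 with vehicle in RCC4 FoxO3 cells and 12.90 with 4OHT and 12.42 with vehicle in UMRC2 FoxO3 cells. The rest read 12.27 and 11.35 in RCC4 FoxO1, 13.11 and 12.65 in UMRC2 FoxO1, 11.32 and 11.29 in RCC4 EV and 12.31 and 12.47 in UMRC2 EV, 4OHT first. The UMRC2 FoxO1 array with 4OHT was above the UMRC2 FoxO3 one, and the effect was 0.71 without the RCC4 FoxO3 pair (adjusted p = 0.0309). On a second probe set of nearly equal intensity it was 1.39 and did not pass (adjusted p = 0.0852).

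GBE1, the glycogen branching enzyme, rose with FoxO3 (0.62 ± 0.12, adjusted p = 0.0114). It was 13.26 with 4OHT and 12.79 with vehicle in RCC4 FoxO3 cells and 13.41 with 4OHT and 12.71 with vehicle in UMRC2 FoxO3 cells. Levels elsewhere were 13.08 and 12.75 in RCC4 FoxO1, 13.29 and 12.84 in UMRC2 FoxO1, 12.86 and 12.92 in RCC4 EV and 12.52 and 12.52 in UMRC2 EV, 4OHT first. All 4 fusion arrays with 4OHT were above the other 8. The other genes did not pass with FoxO3: the vasodilator peptide gene ADM had -0.80 (adjusted p = 0.0797), the epidermal growth factor receptor ligand gene TGFA -0.63 (adjusted p = 0.0747), NDRG1 0.01, the disulfide oxidase gene ERO1A -0.25, the secreted glycoprotein gene STC2 -0.32 and the activin subunit gene INHBB -0.10.

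Single pairs also carried calls. Of the 14, 9 passed without the RCC4 EV pair, where PFKFB3, PGAM1, CA12, LOX and BHLHE40 were lost, and 11 without the UMRC2 EV pair, where GBE1, PGAM1 and P4HA2 were lost. With second probe sets put in where a member has one, 11 of the 14 passed, and PFKP, LOX and BHLHE40 were lost. HK1, PFKFB3, PGAM1, ENO2 and GBE1 have only 1 probe set, so their calls were carried over unchanged. The calls repeated on another probe set were those of HK2, PFKFB4, PLIN2, PLOD2, CA12 and P4HA2. These calls rest on the scaling and the variance model too. On the values as deposited, where the median of all genes moved to -0.42, 6 members fell and 0 rose, and with array medians equalised, which moved it to -0.14, 9 fell and 2 rose. All 14 kept their direction in each of those settings, but none passed with no filter on dim genes (17 at unadjusted p under 0.05) or with a constant prior variance (13 at unadjusted p under 0.05).

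FoxO1 changed no member past the threshold. The count was 0 of 39, beside 0.084% of all genes tested, all of them higher, and 7 of 39 (17.9%) were at unadjusted p under 0.05, beside 10% of all genes, with a median effect of 0.02. Those 7 were PLIN2 (-1.21 ± 0.20, adjusted p = 0.108), HK2 (-1.17 ± 0.25, adjusted p = 0.16), TGFA (-0.85 ± 0.20, adjusted p = 0.205) and PFKFB3 (-0.44 ± 0.16, adjusted p = 0.416), with negative effects, and GBE1 (0.42 ± 0.12, adjusted p = 0.296), JMJD6 (0.94 ± 0.28, adjusted p = 0.337) and ANKRD37 (0.74 ± 0.26, adjusted p = 0.401), with positive ones. HK2 with FoxO1 was -0.75 in RCC4 and -1.59 in UMRC2, and PLIN2 was -0.80 and -1.62. The lowest value was that of INHBB (-1.25, adjusted p = 0.622), which came from UMRC2, and the highest was that of JMJD6. Leaving out a FoxO3 pair, RCC4 or UMRC2, gave 3 calls each, beside 1.32% of all genes.

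Averaged over both isoforms, 6 members fell and 2 rose against EV, 8 of 39 or 20.5%, beside 7.81% of all genes, 4.73% lower and 3.09% higher. The lower ones were HK2 (-1.81 ± 0.21, adjusted p = 0.0063), PLIN2 (-1.57 ± 0.18, adjusted p = 0.00617), PFKFB4 (-1.23), TGFA (-0.74 ± 0.17, adjusted p = 0.0442), PFKFB3 (-0.66) and HK1 (-0.60), and the higher ones PLOD2 (0.68) and GBE1 (0.52). The average, FoxO3 and FoxO1 effects share the same EV pairs. Without the RCC4 FoxO3 or the UMRC2 FoxO3 pair 10 fell and 3 rose each time. Without the RCC4 EV or UMRC2 FoxO1 pair 3 fell, without the UMRC2 EV pair 4 fell, and none rose in those; without the RCC4 FoxO1 pair 3 fell and 2 rose. On the values as deposited or with array medians equalised 2 or 5 fell and 0 rose, and 2 or 3 of the 8 calls were kept.

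TGFA was the only member called in the average and not with FoxO3 alone. Levels of TGFA were 10.002 with 4OHT and 10.20 with vehicle in RCC4 FoxO3 cells and 11.10 with 4OHT and 12.01 with vehicle in UMRC2 FoxO3 cells. They were 9.43 and 9.95 in RCC4 FoxO1, 10.90 and 11.93 in UMRC2 FoxO1, 10.11 and 9.96 in RCC4 EV and 12.23 and 12.23 in UMRC2 EV, 4OHT first. In UMRC2 both fusion arrays with 4OHT lay below the other 4, and in RCC4 only the FoxO1 array lay clearly below.

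FoxO3 and FoxO1 responses were compared directly. The effect in this contrast uses no EV pair, while its error and p-values draw on all 6 pairs. In it 7 members were lower with FoxO3 and 1 was higher, 8 of 39 or 20.5%, beside 5.81% of all genes, 3.65% lower and 2.16% higher. Glycolytic enzymes gave 5 of the lower ones and 0 higher: PFKFB4 (-1.93 ± 0.25, adjusted p = 0.0123), ENO2 (-1.78 ± 0.19, adjusted p = 0.0088), HK2 (-1.29 ± 0.25, adjusted p = 0.03), HK1 (-1.01 ± 0.15, adjusted p = 0.0181) and PFKP (-0.74 ± 0.16, adjusted p = 0.041). The other hypoxia-inducible genes gave ANKRD37 (-1.46 ± 0.26, adjusted p = 0.026) and ADM (-1.25 ± 0.26, adjusted p = 0.0371) as lower and PLOD2 (0.79 ± 0.18, adjusted p = 0.0471) as higher.

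ANKRD37 and ADM had opposite signs with the isoforms. ANKRD37 was 8.65 with 4OHT and 8.91 with vehicle in RCC4 FoxO3 cells and 8.61 with 4OHT and 9.69 with vehicle in UMRC2 FoxO3 cells, and in FoxO1 cells 10.06 and 9.01 in RCC4 and 10.35 and 9.82 in UMRC2, 4OHT first. In EV it was 9.10 and 9.02 in RCC4 and 9.42 and 9.41 in UMRC2. The FoxO1 arrays with 4OHT were the highest of the 12 and the FoxO3 ones the lowest. ADM was 8.996 with 4OHT and 10.36 with vehicle in RCC4 FoxO3 cells and 10.63 with 4OHT and 11.02 with vehicle in UMRC2 FoxO3 cells, and in FoxO1 cells 10.64 and 10.39 in RCC4 and 11.57 and 11.09 in UMRC2. In EV it was 10.36 and 10.42 in RCC4 and 10.72 and 10.81 in UMRC2, 4OHT first. In each line the FoxO1 array with 4OHT was the highest of 6 and the FoxO3 array with 4OHT the lowest.

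Single pairs and the scaling moved these results. Without a FoxO1 or FoxO3 pair only 1 pair of that isoform is left, so effects alone are given for those fits. All 8 kept their sign, but not all of the calls held. HK2 ran from -0.92 to -1.66, PFKP from -0.45 to -1.03, PLOD2 from 0.51 to 1.07 and ADM from -0.82 to -1.68. HK1 ran from -0.85 to -1.17, ENO2 from -1.58 to -1.99, PFKFB4 from -1.59 to -2.27 and ANKRD37 from -1.21 to -1.72. Without the RCC4 FoxO3 pair, the glycolytic enzymes gave HK1 -0.85, HK2 -1.17, PFKFB4 -1.74, ENO2 -1.66 and PFKP -1.03. The other genes gave ADM -0.82, ANKRD37 -1.72 and PLOD2 0.52 in that fit. On the values as deposited 0 of 39 passed (7 at unadjusted p under 0.05), and with array medians equalised 6 did. On second probe sets every call that could be repeated was lost: HK2 gave -0.77, PFKFB4 -1.47, PLOD2 0.89 (adjusted p = 0.0661) and PFKP 0.17, with its sign turned. The second probe set of ANKRD37 gave -0.18 but averaged 4.33, near the floor of 4.17, so it could not repeat the call. HK1, ENO2 and ADM have no second probe set.

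4OHT alone moved none of the members past the threshold. In EV cells 0 of 39 passed, beside 0% of all genes, and 1 (2.56%) was at unadjusted p under 0.05, beside 2.37% of all genes, HK2 (0.41 ± 0.17, unadjusted p = 0.047). The 3 lowest EV responses were SLC2A3 (-0.36), STC2 (-0.35) and INHBB (-0.17) and the 3 highest HK2, PFKL (0.15) and PLIN2 (0.11). Before 4OHT the fusion lines against EV gave 0 of 39 called, beside 0% of all genes, and 2 (5.13%) at unadjusted p under 0.05, beside 8.5% of all genes, HK2 (0.40 ± 0.11, unadjusted p = 0.00875) and PFKP (0.18 ± 0.05, unadjusted p = 0.0121), both higher in the fusion lines.

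Whether RCC4 and UMRC2 responded differently to FoxO was tested as an interaction, RCC4 minus UMRC2. None of the 39 passed, beside 0% of all genes, and 0 were at unadjusted p under 0.05. The fit takes FoxO3 and FoxO1 as replicates, so its error holds the difference between the isoforms. Its standard error was 1.51 for PFKFB4 and 1.34 for ENO2, against 0.25 and 0.19 for their FoxO3 effects. For genes on which the isoforms differ it could hardly find a line difference, and no conclusion is drawn for them. The largest values were CA12 (-1.40 ± 0.79, unadjusted p = 0.131), BHLHE40 (-1.04 ± 0.88, unadjusted p = 0.283) and ALDOC (-0.67) as negative, and LOX (0.91 ± 0.77, unadjusted p = 0.284), PFKL (0.74) and SLC2A1 (0.71) as positive. FoxO3 effects by line were -2.64 in RCC4 and -0.57 in UMRC2 for CA12, -2.39 and -0.68 for BHLHE40, and 2.21 and 0.65 for LOX. The count was also 0 without the RCC4 FoxO3 pair, and the large RCC4 values rest on the array that was deposited at another level.

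Before any 4OHT many of these genes differed between RCC4 and UMRC2, as did many others. Over the 6 vehicle arrays 11 members were higher and 14 lower in RCC4, 25 of 39 or 64.1%, beside 51.4% of all genes, 27.4% higher and 24% lower. By list these were 8 of 19 glycolytic enzymes, 2 of 2 glucose transporters and 15 of 18 other hypoxia-inducible genes. SLC2A3 passed the intensity filter through UMRC2 and INHBB through RCC4 alone, so the filter itself favoured a difference; without them 10 were higher and 13 lower of 37, or 62.2%. The vehicle arrays of the lines did not overlap for 23 of 39 members (59%), beside 59.8% of all genes. The 3 arrays of a line are derivatives of 1 parent, and the test measures the spread between them.

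**Figure D4:**
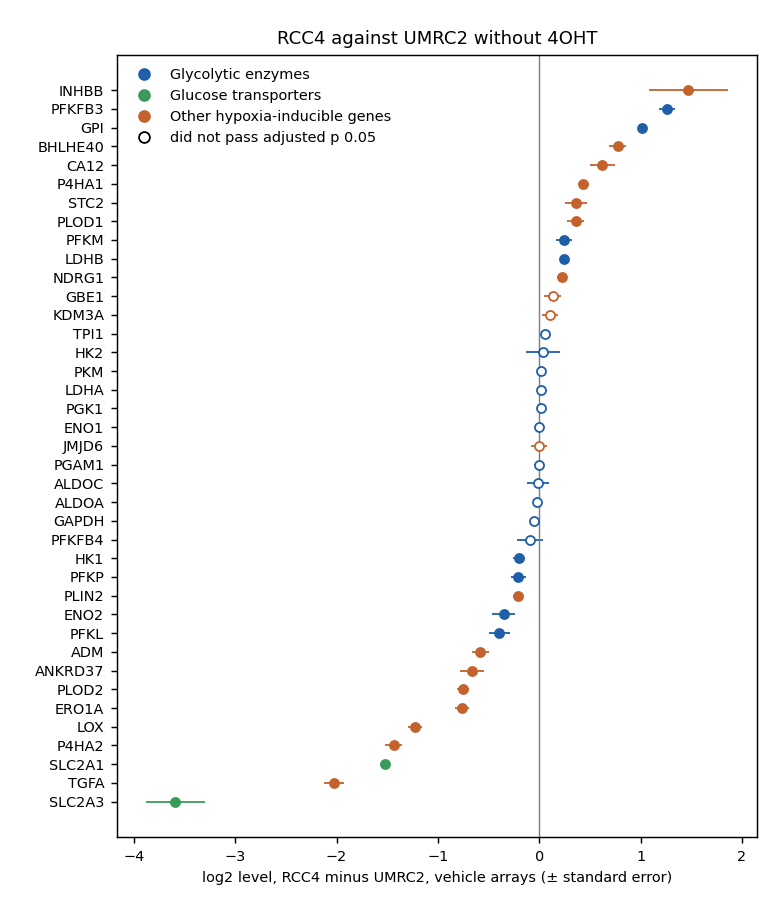
Difference in log2 level between RCC4 and UMRC2 on vehicle arrays (horizontal axis, RCC4 minus UMRC2, with its standard error from limma, 3 arrays per line) for the 39 measured genes, ordered by size; filled points passed adjusted p 0.05. SLC2A3, TGFA and SLC2A1 lie furthest to the left, INHBB, PFKFB3 and GPI furthest to the right, and most glycolytic enzymes lie near 0.

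Both glucose transporters had lower levels in RCC4. SLC2A3 on vehicle arrays was 4.72, 4.46 and 4.95 in RCC4 FoxO3, FoxO1 and EV cells, against 8.68, 8.20 and 8.02 in the same UMRC2 derivatives, and with 4OHT it was 4.85, 4.17 and 4.64 against 9.28, 8.51 and 7.62. SLC2A3 was near the floor of 4.17 in RCC4, and its difference of -3.59 ± 0.29 (adjusted p = 1.51e-05) is given as a description. SLC2A1 was 11.28, 11.26 and 11.32 in RCC4, against 12.84, 12.76 and 12.82 in UMRC2 in that order of derivatives (-1.52 ± 0.05, adjusted p = 1.03e-07), and 11.16, 11.29 and 11.41 against 11.59, 12.23 and 12.77 with 4OHT. Neither gene's vehicle arrays overlapped between the lines.

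Of the growth and secreted factors, TGFA was lower in RCC4 at 10.20, 9.95 and 9.96, against 12.01, 11.93 and 12.23 in UMRC2, on vehicle arrays of FoxO3, FoxO1 and EV cells (-2.02 ± 0.10, adjusted p = 9.47e-07). ADM was lower as well (-0.58 ± 0.08, adjusted p = 0.000438), with the sign turned on the values as deposited. INHBB, which reached the array median on 1 UMRC2 array, is also given as a description: it was 7.65, 8.49 and 8.15 in RCC4, against 5.95, 7.46 and 6.47 in UMRC2 (1.47 ± 0.39, adjusted p = 0.0122), and with 4OHT it was 7.03, 8.26 and 8.28 against 6.03, 4.86 and 6.004. STC2 was 10.65, 10.97 and 10.90 in RCC4, against 10.67, 10.41 and 10.35 in UMRC2 (0.36 ± 0.11, adjusted p = 0.0244), and 9.33, 10.92 and 10.19 against 10.65, 10.68 and 10.35 with 4OHT. Its 2 lines' vehicle arrays overlapped, and a second probe set of almost the same intensity gave -0.998, so no direction is drawn for STC2.

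Of the matrix enzymes P4HA2 (-1.44 ± 0.09, adjusted p = 3.06e-06), LOX (-1.23 ± 0.07, adjusted p = 2.19e-06) and PLOD2 (-0.76 ± 0.06, adjusted p = 1.51e-05) were lower in RCC4, with the vehicle levels given above, and PLOD2 changed sign on the values as deposited. P4HA1 was higher in RCC4 at 12.52, 12.61 and 12.59, against 12.21, 12.16 and 12.06 in UMRC2 (0.43 ± 0.05, adjusted p = 0.000203), and with 4OHT it was 12.27, 12.69 and 12.65 against 11.58, 12.31 and 12.13. PLOD1 was also higher at 10.44, 10.45 and 10.44, against 10.16, 10.15 and 9.94 (0.36 ± 0.08, adjusted p = 0.00588), and with 4OHT it was 9.70, 10.55 and 10.36 against 10.01, 10.29 and 10.18. All 3 RCC4 vehicle arrays of P4HA1 and of PLOD1 lay above all 3 of UMRC2. A second probe set of P4HA1 gave 0.04 and did not pass, but it averaged 4.36, near the floor of 4.17, and could not repeat the difference.

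BHLHE40 (0.77 ± 0.08, adjusted p = 7.95e-05) and CA12 (0.62 ± 0.12, adjusted p = 0.00245) were higher in RCC4, and NDRG1 slightly so (0.22, adjusted p = 0.00299). ANKRD37 (-0.66 ± 0.12, adjusted p = 0.00172) and PLIN2 (-0.21, adjusted p = 0.00786) were lower, and PLIN2 changed sign under both other scalings and ANKRD37 on the values as deposited. ERO1A was lower in RCC4 at 10.75, 10.79 and 10.85, against 11.65, 11.53 and 11.49 in UMRC2 (-0.76 ± 0.06, adjusted p = 2e-05), and with 4OHT it was 10.17, 10.57 and 10.66 against 11.49, 11.73 and 11.44. Its second probe set gave 0.57 (adjusted p = 0.000195), so the direction for ERO1A depends on the probe set, and on the values as deposited it was turned too. GBE1, KDM3A and JMJD6 did not pass.

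Of the glycolytic enzymes PFKFB3 and GPI had the largest differences. PFKFB3 was higher in RCC4 at 12.79, 12.83 and 13.03, against 11.75, 11.52 and 11.59 in UMRC2 (1.26 ± 0.08, adjusted p = 4.24e-06). GPI was higher in RCC4 at 13.80, 13.85 and 13.79, against 12.78, 12.82 and 12.79 in UMRC2 (1.02 ± 0.04, adjusted p = 2.3e-07), and with 4OHT it was 13.68, 13.79 and 13.79 against 12.27, 12.93 and 12.77. All RCC4 arrays of both genes were above all UMRC2 arrays apart from one PFKFB3 value, the RCC4 FoxO3 array with 4OHT (11.63), which was under the UMRC2 FoxO3 vehicle array (11.75).

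PFKL was lower in RCC4 at 10.10, 10.22 and 10.16, against 10.65, 10.69 and 10.32 in UMRC2 (-0.39 ± 0.11, adjusted p = 0.0129), and with 4OHT it was 10.47, 10.22 and 10.10 against 10.34, 10.74 and 10.69; its sign turned on the values as deposited, and its second probe set gave -0.05 and did not pass. PFKM was higher at 10.83, 10.65 and 10.76, against 10.45, 10.43 and 10.62 (0.25 ± 0.08, adjusted p = 0.0307), and with 4OHT it was 10.04, 10.20 and 10.79 against 9.91, 10.19 and 10.42. LDHB was higher at 14.38, 14.46 and 14.46, against 14.17, 14.20 and 14.21 (0.24 ± 0.03, adjusted p = 0.000443), and with 4OHT it was 14.15, 14.34 and 14.48 against 13.83, 13.93 and 14.20. ENO2 (-0.35, adjusted p = 0.0303), HK1 (-0.20, adjusted p = 0.0198) and PFKP (-0.21, adjusted p = 0.0497) were lower by small amounts, and all 3 changed sign on the values as deposited, HK1 and PFKP also with array medians equalised. The other 11 glycolytic enzymes, HK2 (0.04) and PFKFB4 (-0.09) among them, did not pass.

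The split of line differences depends on the scaling. On the values as deposited, where RCC4 arrays sit higher and the median of all genes moved to 0.77, 29 members were higher and 5 lower in RCC4, and with array medians equalised, which moved it to 0.12, 20 were higher and 9 lower. SLC2A1, TGFA, P4HA2 and LOX stayed lower and PFKFB3 and GPI higher under both. On the 6 arrays with 4OHT in place of vehicle 5 of 39 passed, beside 13.8% of all genes.

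Of 11 measured regulators of the HIF pathway 3 were higher and 5 lower in RCC4 than in UMRC2 (72.7%, beside 51.4% of all genes). HIF1A, the alpha subunit of HIF-1, lay between 10.74 and 12.04 on all arrays and EPAS1, the alpha subunit of HIF-2, between 8.52 and 12.42. In RCC4 both were lower than in UMRC2 on vehicle arrays, HIF1A by -0.98 ± 0.13 (adjusted p = 0.000317) and EPAS1 by -3.61 ± 0.10 (adjusted p = 5.64e-08). Their FoxO3 effects were 0.10 ± 0.18 (adjusted p = 0.772) and 0.12 ± 0.18 (adjusted p = 0.728). Neither passed. With FoxO3 1 of the 11 fell and 0 rose (9.09%, beside 16.6% of all genes), and it was MYC (-2.46 ± 0.36, adjusted p = 0.00505), a transcription factor that also drives glycolytic genes.

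Of 30 further HIF targets measured outside the set, 6 fell and 5 rose with FoxO3 (36.7%, beside 16.6% of all genes, 10% lower and 6.6% higher). The lower ones were VEGFA (-2.85 ± 0.22, adjusted p = 0.00114), CCND1 (-2.57), DDIT4 (-2.45) and EFNA3 (-3.68). The lipid droplet protein gene HILPDA (-1.36) and PGM1, which feeds glycogen glucose into glycolysis (-1.23), were lower too. EFNA3 read 4.26 in RCC4 and 4.39 in UMRC2 on the FoxO3 arrays with 4OHT, near the floor of 4.17, so the size of its fall is uncertain. The higher ones were CITED2 (2.19), which limits HIF activity, CCNG2 (2.07), INSIG2 (1.51), MXI1 (1.34) and the pyruvate dehydrogenase kinase gene PDK1 (1.15, adjusted p = 0.0132). Of 10 genes of gluconeogenesis and pyruvate entry 1 fell, the mitochondrial pyruvate carrier MPC2 (-0.45, adjusted p = 0.0439), and 0 rose, a share of 10% that is below that of all genes.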

How the data were processed

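Total RNA of 12 cultures was hybridised to U133 Plus 2.0 arrays, 1 per combination of cell line, construct and treatment. The deposited values are linear intensity per probe set, made by the authors with MAS5 per the submitters' processing notes, with no version or scaling target given in the sources used here. Signal depth is not stated, so the number of arrays sets the precision.

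All 54675 probe sets were quantile-normalised on the log2 scale with a floor set at the 20th percentile (intensity 18.0, log2 4.17). The 62 control probe sets, the 1801 annotated to several genes and the 11721 with none were left out of the gene table, which left 41091. The probe set with the highest mean stood for each of 19775 genes, and the 14283 genes that reached the array median of 6.62 in at least 2 arrays were tested. The annotation can be old.

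A linear model of construct plus cell line was fitted to the 6 responses with limma 3.58.1 in R 4.3.3, using eBayes with an intensity trend (2 residual and 5.46 prior degrees of freedom). Separate fits gave the interaction of line and fusion (FoxO3 and FoxO1 as replicates), RCC4 against UMRC2 and fusion against EV on vehicle arrays. Tests are two-sided. With cell lines as replicates, p-values of the response fit measure the spread between lines. Those of the interaction measure the spread between isoforms, and those on vehicle arrays the spread between derivatives. None of them says anything of repeat cultures.

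The genes, lists and tests were chosen with earlier results of these data known. Members past the threshold are given on every array, up to 10 per direction, and others as values; genes outside the set come from the lists of HIF targets, HIF regulators, gluconeogenesis and kidney markers. The tests were checked on simulated data. Promoters come from RefSeq on GRCh38.p14.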

Additional observations from a re-analysis of the deposited data

How the results depend on the processing

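Of 905 values for single members under the alternatives, 639 kept direction and call, 241 kept direction and lost the call, and 25 reversed. FoxO3 against EV kept direction in 224 of 224 and the FoxO average in 128 of 128. Part of this was fixed in advance, since a constant prior variance and no filter leave an effect unchanged. So does leaving out a FoxO1 pair for FoxO3 against EV, and the second probe set setting for members that have none. Values as deposited left 2 calls for the FoxO average, 6 for FoxO3 and 0 for FoxO3 against FoxO1 (7 at unadjusted p under 0.05). Equalised medians gave 5 for the average, with 3 of the 8 main calls kept. With no filter or a constant prior variance in limma, all 3 had 0 calls (9 or 8, 17 or 13, and 15 or 10 at unadjusted p under 0.05). The mean of probe sets gave 5 for the average and 4 for FoxO3 against FoxO1, and no cell line term 5 and 5. The second probe set gave 4 and 5, with 3 of the 8 calls kept in each. For FoxO3 against EV it kept 11 of 14. Members with only 1 probe set were carried over unchanged in that setting. The 3 kept for FoxO3 against FoxO1 were HK1, ENO2 and ADM, all carried over. Fitted as their own features, second probe sets of HK2, PFKFB4, PLIN2, PLOD2 and TGFA did not pass for the average (adjusted p 0.0582 to 0.116). Leaving out 1 pair gave 3 to 13 calls for the average, 0 to 3 for FoxO1, 10 to 15 for FoxO3 and 1 to 12 for FoxO3 against FoxO1. PFKP for FoxO3 against FoxO1 was 0.17 on its second probe set.

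For RCC4 minus UMRC2, 5 members passed on 4OHT arrays. Reversed differences on the values as deposited were HK1 0.67, PLOD2 0.13, PLIN2 0.76, PFKP 0.77, ENO2 0.55, ADM 0.17, ANKRD37 0.022, PFKL 0.34 and ERO1A 0.013. With equalised medians they were HK1 0.023, PLIN2 0.12 and PFKP 0.13, and with the mean of probe sets PLIN2 0.30 and STC2 -0.32. On 4OHT arrays they were PLIN2 0.052, CA12 -0.22, BHLHE40 -0.074 and STC2 -0.41, on second probe sets PLIN2 0.80, ANKRD37 0.042, ERO1A 0.57 and STC2 -0.998, and with each probe set alone, an alternative chosen after seeing the data, CA12 -1.23 and STC2 -0.998. The second probe set of ANKRD37 averaged 4.33, near the floor of 4.17. The cause of these reversals was not tested.

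Responses are already paired within each derivative and cell line is a term; no further replicate block was fitted, since each combination has 1 array and the labels give no replicate numbers. The interaction could not be fitted without an EV pair. Dim genes have the least signal over background, and SLC2A3 in RCC4 is near the floor.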

Other observations

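Several members had more than 1 probe set, and those of a gene did not always move alike. A second probe set existed for 26 of the 39 members and reached the array median for 23. For HK2 the effects of FoxO3 against EV were -2.46 and -2.22 on its first and second probe sets, for PFKFB4 -2.20 and -2.95, for PLIN2 -1.93 and -2.79 and for PLOD2 1.07 and 1.20. CA12 had 5 probe sets between -1.57 and -1.88 and 2 dimmer ones at -0.40 and -0.29. On vehicle arrays those 5 CA12 probe sets were higher in RCC4 by 0.56 to 1.01, while the 2 dimmer ones gave -1.23 and -1.34.

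STC2 had probe sets of nearly equal mean intensity, 10.51 and 10.46, that disagreed between the lines. With 4OHT in FoxO3 cells the first changed by -1.33 in RCC4 and by -0.02 in UMRC2, and the second by -2.29 in RCC4 and by 1.28 in UMRC2. These are single pairs with no test.

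JMJD6 had a FoxO1 effect of 0.78 in RCC4 and 1.09 in UMRC2, against FoxO3 effects of -0.57 and 0.43. A second JMJD6 probe set above the array median did not repeat the positive effects in UMRC2. There its responses were 0.48 with FoxO1 and 0.24 with FoxO3, both below the EV response of 0.65. In RCC4 they were 0.88 with FoxO1, -1.06 with FoxO3 and -0.16 in EV. INHBB read 4.86 on the UMRC2 FoxO1 array with 4OHT, against 7.46 with vehicle, and stood between 5.95 and 6.47 on the other UMRC2 arrays.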
